A study of Rattus norvegicus with 54 samples.

Results

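The genes described here are 31 genes of fatty acid oxidation, chosen by symbol: the enzymes and carriers that bring fatty acids into the mitochondrion and degrade them there, their peroxisomal and thioesterase companions, and the regulators and switches of the pathway. Of these, 30 had counts in both deposited tables, which hold 12199 genes for right ventricle and 12650 for lung. Echs1, the short-chain enoyl-CoA hydratase, was in neither table and is not analysed here. All 30 passed the filter on low counts in both altitude comparisons. Both tissues came from Sprague Dawley rats aged 6 weeks. The altitude rats, labelled H-H, were conceived and raised in a hypobaric chamber at 9000 feet, equal to 15% inspired oxygen. The control rats, labelled RA-RA, lived in room air for the same time. H-H rats gave 14 right ventricle and 14 lung libraries, from litters 4HH (6 in each tissue) and 3HH (8 in each). RA-RA rats gave 11 right ventricle libraries (4 of litter 6RARA, 7 of litter 4RARA) and 15 lung libraries (7 of 6RARA, 8 of 4RARA). Litters were read from the animal names, both sexes are present in every litter, and each litter had only 1 treatment, so 2 litters stand on each side of the altitude comparison. Tests over animals therefore measure spread between animals, including littermates.

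In heart muscle, long-chain fatty acids are the main fuel. They are bound in the cytosol by Fabp3, activated to acyl-CoA by Acsl1 and carried into the mitochondrial matrix by the carnitine shuttle, whose gate is Cpt1b in muscle and Cpt1a in most other tissues. In the matrix, acyl-CoA dehydrogenases, the trifunctional protein (Hadha and Hadhb) and related enzymes shorten the chain in cycles, and Etfa, Etfb and Etfdh pass the electrons to the respiratory chain. The nuclear receptor Ppara and its coactivator Ppargc1a raise transcription of many of these genes. Hypoxia is known to lower fatty acid use in heart in several animal models, and the altitude comparison asks whether transcript levels of the pathway differed after lifelong moderate hypoxia.

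The subunits of the trifunctional protein are encoded head to head, and their promoters are printed because these genes moved together in direction but not in size in the right ventricle comparison of litters described further on. In the rn6 coordinates of the deposited tables, Hadha (plus strand) begins at chr6:27589840 and Hadhb (minus strand) at chr6:27589539, which is 301 bases apart. The windows are RefSeq sequence of build GRCr8 from 250 bases before to 50 bases after each start, 300 bases long, Hadha at chr6:31907551-31907850 on the plus strand and Hadhb at chr6:31907451-31907750 on the minus strand. Capitals in the Hadha window mark the 200 bases that both windows hold, on opposite strands. Capitals in the Hadhb window mark a match to NAAGGTCA, read on the opposite strand, the letters bound by estrogen-related receptors.
Hadha: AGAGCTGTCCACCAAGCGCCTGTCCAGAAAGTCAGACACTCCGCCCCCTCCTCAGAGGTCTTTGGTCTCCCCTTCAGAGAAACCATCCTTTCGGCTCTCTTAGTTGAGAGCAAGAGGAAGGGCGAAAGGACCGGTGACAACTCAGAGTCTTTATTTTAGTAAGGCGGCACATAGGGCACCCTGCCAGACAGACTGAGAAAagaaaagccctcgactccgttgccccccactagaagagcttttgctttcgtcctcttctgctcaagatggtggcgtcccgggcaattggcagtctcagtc
Hadhb: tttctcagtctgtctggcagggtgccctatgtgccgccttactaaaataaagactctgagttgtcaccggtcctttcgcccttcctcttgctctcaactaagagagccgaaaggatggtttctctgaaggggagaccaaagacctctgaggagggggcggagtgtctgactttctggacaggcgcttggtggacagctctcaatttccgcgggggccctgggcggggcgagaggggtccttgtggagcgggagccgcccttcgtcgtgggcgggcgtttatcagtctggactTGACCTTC
Promoters of 26 of the 31 genes were in the table. There was no entry for Cpt1b, Acadl, Ech1, Acaa2 or Decr1. On either strand, NAAGGTCA occurred in 1 of the 26 windows, that of Hadhb, against 4.59% of all 33469 promoters. A direct repeat of AGGNCA with 1 base between its copies, the pattern known for PPAR and RXR pairs, occurred in none of the 26, against 0.415% of all promoters. The Hadhb match covers positions 293 to 300 of its window, counted from 1 at the 5′ end, outside the shared bases. The motifs can overlap, since AGGTCA is a copy of AGGNCA, and a match describes letters only.

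Libraries that stand apart touch these results. Total counts ranged from 6116006 to 16326512 in right ventricle and from 1028679 to 23902634 in lung. Summed marker levels matched the tissue labels: 15 cardiac muscle genes summed to 24480 to 122177 CPM (read counts scaled to a common library total with TMM factors) in right ventricle, and 14 lung epithelial genes to 38167 to 75358 CPM in lung, with no gene of either list at 0 there. Animal 4HH37 went against this in both tissues. Its lung library held 14998 CPM of cardiac muscle markers, against 35.3 to 248.5 CPM in the other 28 lung libraries, and its right ventricle library held 16886 CPM of lung epithelial markers, against 57.8 to 2215 CPM in the other 24. In right ventricle, the 4 libraries of litter 6RARA had an RNA integrity number (RIN) of 5.8 to 7.4 and 17.3% to 22.5% intergenic reads, while the 7 of litter 4RARA had a RIN of 6.5 to 9.6 and 9.28% to 12.3% intergenic reads. Altitude results are therefore given with all libraries and without litter 6RARA and animal 4HH37. In bulk tissue, fewer cells of a type and less RNA per cell cannot be told apart.

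No gene of the pathway passed the test for altitude in right ventricle, and the sign of most differences turned on a single room air litter. With all libraries, 0 of 30 were called (edgeR's quasi-likelihood test, adjusted p under 0.05), against 343 of 11298 genes in all (3.04%). DESeq2 and limma with litter as a random effect also called 0 of 30, and 2 of the 30 had an unadjusted p under 0.05. On the log2 scale H-H lay above RA-RA for 28 of 30, with a median of 0.30 beside 0.02 over all genes. The median was 0.13 within library batch 1, 0.76 within batch 2, and 0.75 with litter as a random effect. Without litter 6RARA and animal 4HH37 it was above 0 for 11 of 30, with a median of −0.03, and 0 were called where 0.3% of all genes were. Without litter 4RARA, so that only 6RARA stood for room air, 25 of 30 were called higher and Acaa1a lower, with a median of 1.54, where 29.1% of all genes were called higher and 26.5% lower.

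The summed level of the 30 genes, taken litter by litter, was 9335, 17241 and 21550 CPM (lowest, median, highest) in litter 4HH and 14660, 17206 and 21984 CPM in 3HH. In room air it was 4465, 5210 and 6030 CPM in 6RARA and 17084, 17566 and 23206 CPM in 4RARA. Both altitude litters overlapped 4RARA, and all 4 libraries of 6RARA lay below the other 21. The lowest altitude library, at 9335 CPM, was that of 4HH37.

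**Figure D1:**
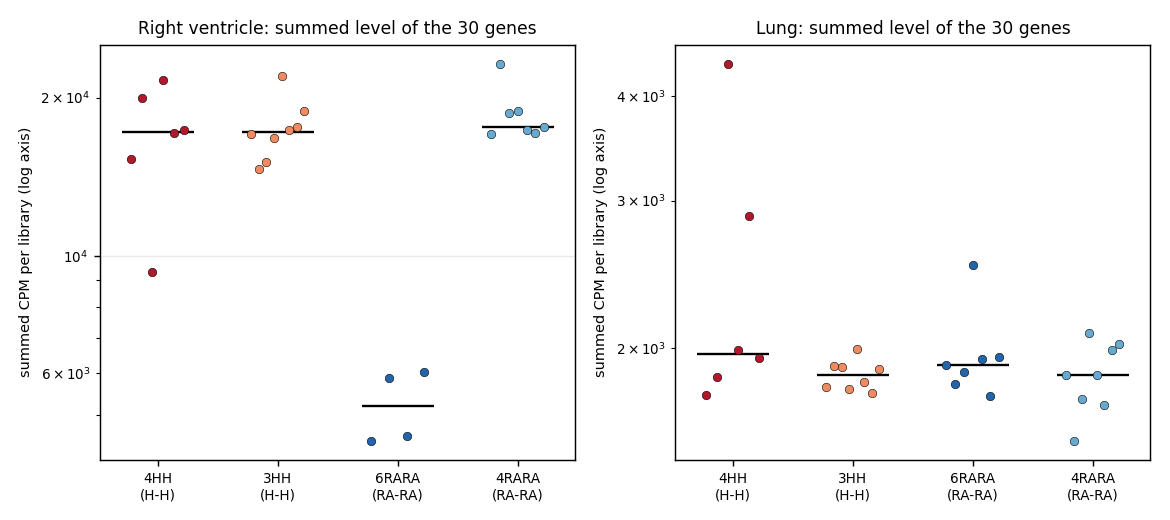
Summed CPM of the 30 fatty acid oxidation genes in each library, by litter, in right ventricle (left panel) and lung (right panel), on log axes; points are libraries and lines are litter medians. In right ventricle the 4 libraries of 6RARA, at 4465 to 6030 CPM, sit below all others; in lung the library of 4HH37 stands highest, at 4375 CPM.

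By role, the right ventricle values with all libraries and without 6RARA and 4HH37 were as follows. Among the fuel entry genes, Fabp3 gave a log2 fold change of 0.41 ± 0.35 (SE) with all libraries and −0.09 without those, and Acsl1 gave 0.32 and −0.09. The muscle gate Cpt1b gave 0.46 ± 0.28 and 0.01. The 4 acyl-CoA dehydrogenases lay between 0.23 and 0.42 with all libraries, and between −0.16 for Acadm and 0.07 for Acadvl without them. Hadha gave 0.37 and −0.04, and Hadhb 0.44 and −0.07. Etfa gave 0.25 and −0.24. The regulators Ppara and Ppargc1a gave 0.38 and 0.11 with all libraries, and −0.17 and −0.44 without 6RARA and 4HH37. None of these passed the test in either fit.

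The 6 genes of lowest p in right ventricle were Cpt1a, Acot2, Ucp3, Acadvl, Mlycd and Cpt2. Cpt1a, the gate of the shuttle outside muscle, had 109, 126 and 166 CPM (lowest, median, highest) in the 14 H-H libraries, against 96.0, 103 and 143.5 CPM in the 11 RA-RA libraries. Its log2 fold change was 0.21 ± 0.10 (SE; adjusted p = 0.201), and it was 0.19 without 6RARA and 4HH37. The groups overlapped over most of their range.

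Acot2, a mitochondrial thioesterase that frees fatty acids from CoA, had 51.4, 109 and 161 CPM in H-H, against 38.5, 87.3 and 113.0 CPM in RA-RA. The log2 fold change was 0.37 ± 0.18 (adjusted p = 0.235). Reads of Acot2 and its neighbour Acot1, a close paralog, may be split by the counting, so both are uncertain. Acadvl, which starts the cycle on very long chains, had 372, 666.5 and 1006 CPM in H-H, against 322.5, 674 and 762 CPM in RA-RA. Its log2 fold change was 0.29 ± 0.16 (adjusted p = 0.305). Mlycd, which removes the malonyl-CoA that inhibits the gate, had 94.9, 166 and 224 CPM in H-H and 45.6, 160.5 and 186 CPM in RA-RA. Cpt2, the matrix enzyme of the shuttle, had 97.8, 168 and 211.5 CPM in H-H and 49.2, 166 and 198 CPM in RA-RA. The log2 fold changes were 0.37 ± 0.21 for Mlycd (adjusted p = 0.321) and 0.31 ± 0.18 for Cpt2 (adjusted p = 0.333), and without 6RARA and 4HH37 they were 0.01 and 0.02.

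Ucp3, an inner membrane carrier induced in muscle by fatty acids and fasting, was the only one of the 6 that lay lower in H-H. It had 8.50, 20.8 and 47.7 CPM in H-H, against 7.83, 25.8 and 89.5 CPM in RA-RA, and its log2 fold change was −0.65 ± 0.35 (adjusted p = 0.287). Without 6RARA and 4HH37 this was −0.94, at an unadjusted p of 0.0123 and an adjusted p of 0.309. Of the 7 libraries of 4RARA, 4 stood at 50.5 to 89.5 CPM, above every altitude library, and the other 3 lay at 14.9 to 25.8 CPM, inside the altitude range. Arntl, a clock gene with a daily rhythm, was 2.49 to 22.9 CPM in H-H and 10.35 to 102.5 CPM in RA-RA, a log2 fold change of −2.43 ± 0.39 (adjusted p = 0.00449), and it was not called with litter as a random effect (adjusted p = 0.751) or with counts summed over litters (adjusted p = 0.941). Its part in the Ucp3 values was not tested.

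**Figure D2:**
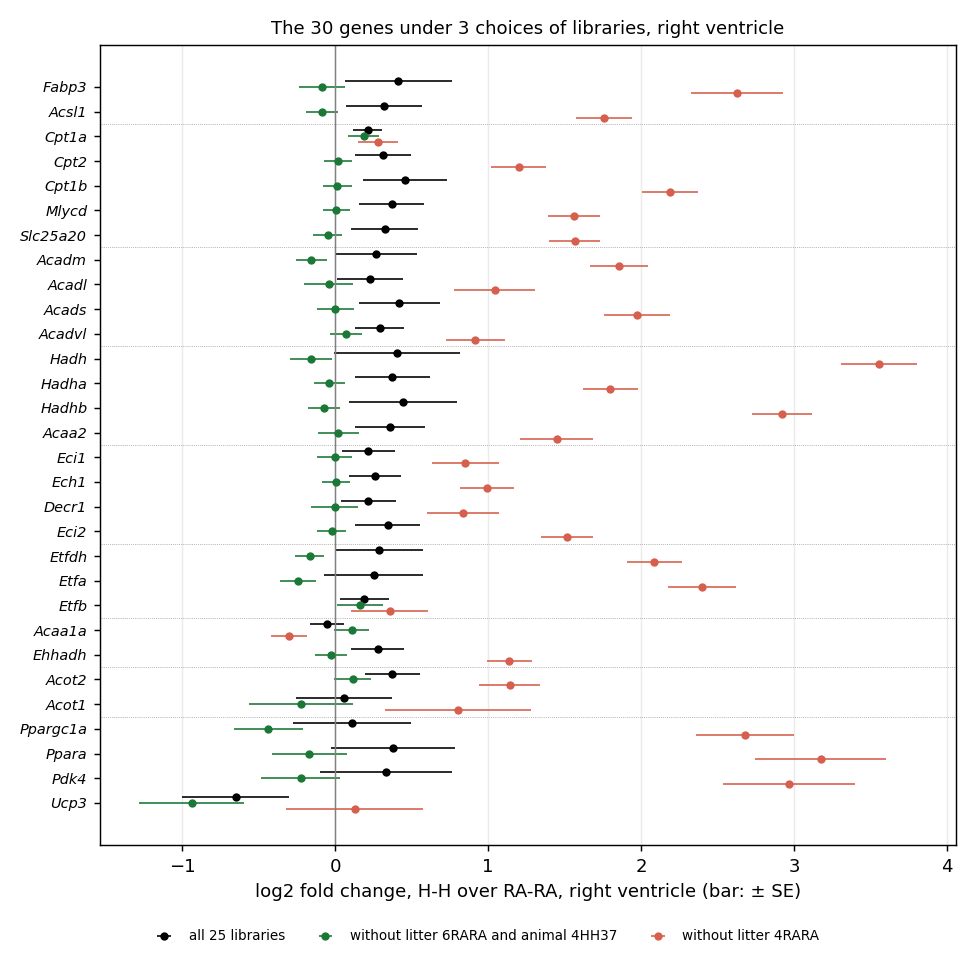
Log2 fold change by altitude (H-H over RA-RA) in right ventricle for each of the 30 genes, ordered by role, under 3 choices of libraries; bars are ± SE and the vertical line marks 0. With litter 6RARA and animal 4HH37 left out the median is −0.03, with Ucp3 lowest at −0.94, and with litter 4RARA left out the median is 1.54.

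The room air litters differed in right ventricle across nearly the whole pathway. With 29 genes tested (Acot1 did not pass the filter there), 25 were lower in 6RARA than in 4RARA and 1 was higher, where 31.5% of all 11407 genes were lower and 33.1% higher. The median log2 fold change of the 29 was −1.58, beside 0.04 over all genes. In 25 of the 29, every 6RARA library lay below every 4RARA library, as did 24.8% of all genes. Library batches 1 and 2 each held 2 of the 4 libraries of 6RARA. Separation within a batch follows from separation over all libraries, so it is no further test of batch.

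The 5 widest differences were those of Hadh, Ppara, Pdk4, Ppargc1a and Hadhb. Hadh, the dehydrogenase for medium and short chains, had 21.1, 28.65, 29.5 and 33.4 CPM in the libraries of 6RARA, against 334.5, 378 and 441 CPM (lowest, median, highest) in 4RARA. Its log2 fold change was −3.74 ± 0.15 (adjusted p = 1.77e-10). Ppara had 2.31, 3.45, 3.92 and 4.12 CPM in 6RARA, against 31.04, 36.7 and 39.6 CPM in 4RARA, a log2 fold change of −3.35 ± 0.16 (adjusted p = 4.66e-10). Both genes were separated by a wide gap.

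Ppargc1a fell by 3.11 ± 0.27 on the log2 scale, and Pdk4, the kinase that turns off pyruvate oxidation when fat is burned, fell by 3.20 ± 0.68. Hadhb fell by 3.01 ± 0.14 and Hadha fell by 1.87 ± 0.15. The ratio of Hadhb to Hadha CPM was 0.515, 0.69 and 1.12 (lowest, median, highest) in 6RARA, against 1.38, 1.62 and 1.82 in 4RARA, so the genes that share the printed stretch did not keep their ratio. In lung this ratio was 0.748, 0.915 and 1.45 in 6RARA and 0.800, 0.846 and 0.887 in 4RARA.

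Among the entry and shuttle genes, Fabp3 fell to 475 to 916 CPM in 6RARA, against 3983 to 6799 CPM in 4RARA (log2 fold change −2.72 ± 0.22). On the same scale Cpt1b fell by 2.22 ± 0.12 and Cpt2 fell by 1.23 ± 0.16, and Slc25a20, the carnitine and acylcarnitine carrier, fell by 1.64 ± 0.13. Of the electron transfer genes, Etfa fell by 2.65 and Etfdh fell by 2.27. Their partner Etfb did not pass the test (log2 fold change −0.22 ± 0.14, adjusted p = 0.189), although Etfa and Etfb encode the subunits of one protein. Smaller differences were seen for Decr1 (−0.86), Acadvl (−0.88), Eci1 (−0.89) and Ech1 (−1.02). Cpt1a (−0.08 ± 0.14) and Ucp3 (−0.94 ± 0.74) did not pass the test. Acaa1a, a peroxisomal thiolase with a close paralog, was 29.0 to 39.3 CPM in 6RARA and 14.9 to 30.3 CPM in 4RARA, and was the only gene called higher (0.42 ± 0.15, adjusted p = 0.022).

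Some other measures moved with these differences and some did not. Cardiac muscle markers fell in 13 of 15 genes tested (median log2 fold change −1.51; summed 24480 to 36668 CPM in 6RARA, against 80872 to 104091 CPM in 4RARA). All 6 capillary endothelial markers and 11 of 12 lung epithelial markers were called higher, the epithelial list summing to 355 to 2215 CPM in 6RARA and 64.3 to 266 CPM in 4RARA. RIN and intergenic reads differed as given above. With RIN as a covariate, 24 of the 29 were called lower and none higher, where 24.2% of all genes were lower and 21.7% higher. Length showed little relation to the difference: across the 29 genes, Spearman's rho between counted length and log2 fold change was −0.07, and across all 11407 genes 0.00, as a description over genes that share libraries. The part of cell makeup or RNA quality in these differences was not tested. All 16 citric acid cycle genes tested and 10 of 12 genes of pyruvate oxidation were also called lower, with medians of −1.73 and −2.05. Not every list fell. The 18 peroxisomal enzymes summed to 2304 to 3042 CPM in 6RARA and 1575 to 3155 CPM in 4RARA. The 17 fatty acid uptake and fat storage genes summed to 6025 to 10638 CPM (median 7838) in 6RARA and 5354 to 6497 CPM (median 5841) in 4RARA. Liver markers summed higher in every 6RARA library, at 38.97 to 1808 CPM, against 15.15 to 25.21 CPM in 4RARA.

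**Figure D3:**
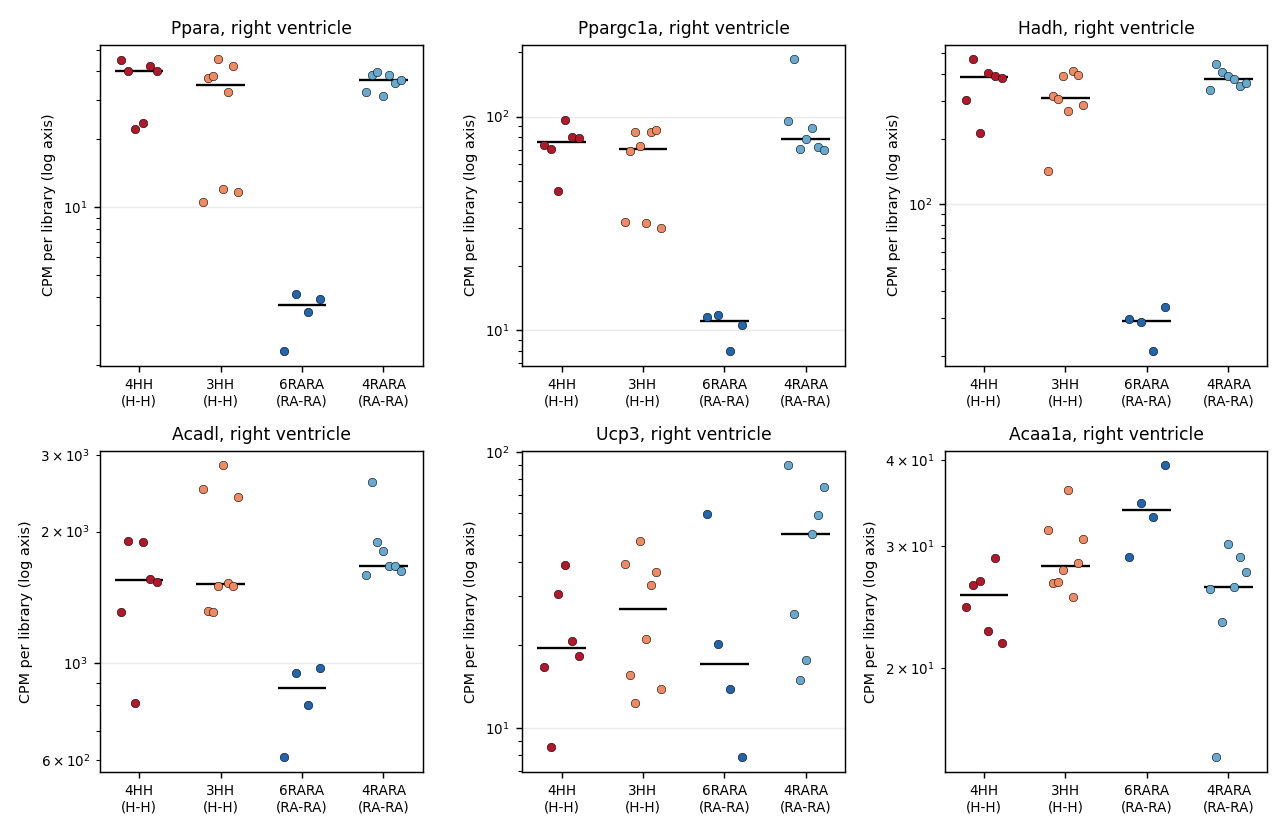
CPM of 6 genes in each right ventricle library by litter, on log axes; points are libraries and lines are litter medians. By litter median, Ppara, Ppargc1a, Hadh and Acadl are lowest in 6RARA and Acaa1a is highest there, while single libraries of Acadl and Acaa1a overlap other litters. Within 3HH the same 3 libraries are low for Ppara and Ppargc1a and high for Acadl.

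The altitude litters differed little in right ventricle: 0 of 30 genes were called for 4HH over 3HH (0.0531% of all genes were), 1 had an unadjusted p under 0.05, and the median was −0.16. Within litter 3HH, however, 3 libraries stood apart together. Ppara was 10.5, 11.7 and 12.0 CPM in animals 3HH20, 3HH30 and 3HH27, and 32.5 to 45.3 CPM in the other 5. Ppargc1a was 30.04 to 32.2 CPM in those 3 and 68.7 to 86.2 CPM in the other 5. Acadl, the long-chain dehydrogenase, ran the other way, with 2401, 2503 and 2837 CPM in those 3 and 1310 to 1528 CPM in the other 5. Etfb was highest in the same 3, at 726 to 1028 CPM, against 491 to 598 CPM in the others. Acads, Decr1, Eci1, Eci2 and Etfa were also highest in those 3 and Hadh was lowest, while others such as Cpt1a overlapped. These genes were picked after their values were seen. The share of all genes that set these libraries apart was not counted, so the pattern may not be particular to the pathway. The RINs of those 3 libraries, 7.2, 5.9 and 7.5, were the 3 lowest of the litter, where the others had 8.0 to 8.4. Cardiac muscle markers summed to 94313, 104898 and 114563 CPM in animals 3HH20, 3HH30 and 3HH27, and to 80534 to 86537 CPM in the other 5. Capillary endothelial markers summed to 795 to 991 CPM in those 3 and to 1100 to 1456 CPM in the others, and mitochondrial reads were 34.0% to 45.1% in those 3 and 23.04% to 32.4% in the others. In lung the same 3 animals were the 3 lowest of the litter for Ppara, at 1.57 to 2.16 CPM, against 2.23 to 3.17 CPM. These levels are low, and almost no gap lay between the groups. Ppargc1a was 6.8 to 8.7 CPM in the lung libraries of those 3 and 9.4 to 20.9 CPM in the other 5, while Acadl overlapped. Their lung capillary endothelial markers summed to 1925.5 to 2390 CPM, against 3239 to 3953 CPM. Lung RINs were 8.4 to 8.9 in those 3 and 9.3 to 9.9 in the others, with 23.8% to 26.3% and 19.6% to 20.8% intergenic reads. The part of these measures in the pattern was not tested.

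In lung, no gene of the pathway passed the test for altitude. The widest differences, those of Fabp3 and Cpt1b, shrank without 1 library. With all libraries, 0 of 30 were called, against 242 of 12115 genes (2.0%). DESeq2 and limma with litter as a random effect also called 0 of 30, and 3 of 30 had an unadjusted p under 0.05. The log2 fold change was above 0 for 23 of 30, with a median of 0.12 beside 0.02 over all genes. The median was 0.05 within library batch 1 and 0.12 within batch 2. Without animal 4HH37 it was above 0 for 17 of 30, with a median of 0.02, and again 0 were called (1.61% of all genes). Without 6RARA and 4HH37, 18 of 30 were above 0 with a median of 0.03, and 0 were called (1.5% of all genes).

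Fabp3, the heart fatty acid binding protein, had 675 CPM in the lung library of 4HH37 and 1.40 to 7.25 CPM in the other 13 H-H libraries, against 0.775, 1.96 and 9.38 CPM (lowest, median, highest) in the 15 RA-RA libraries. Its log2 fold change was 3.39 ± 1.04 (adjusted p = 0.0894), and 0.81 without 4HH37. In the authors' deposited table its log2 fold change was 1.03 with a false discovery rate of 0.0057, the only one of the 30 under 0.05 in either tissue there. Cpt1b had 96.1 CPM in 4HH37 and 1.16 to 10.35 CPM in the other H-H libraries, against 1.56, 4.36 and 6.06 CPM in RA-RA. Its log2 fold change was 1.09 ± 0.45 (adjusted p = 0.241), and 0.34 without 4HH37. The cardiac muscle markers of that library are given above. For both genes the other altitude libraries overlapped room air.

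Acadl had 84.0, 104 and 325.5 CPM in H-H, against 73.6, 92.8 and 124.5 CPM in RA-RA, with the highest value again in 4HH37. The log2 fold change was 0.43 ± 0.15 (adjusted p = 0.1498), and 0.25 without that animal. Ppargc1a had 6.80, 10.1 and 22.2 CPM in H-H and 1.88, 8.15 and 15.1 CPM in RA-RA (0.42 ± 0.22, adjusted p = 0.420). Hadh had 46.9, 64.4 and 119.5 CPM in H-H and 36.6, 55.9 and 78.7 CPM in RA-RA (0.21 ± 0.12, adjusted p = 0.484). Acaa1a had 25.7, 34.6 and 47.7 CPM in H-H and 25.8, 38.6 and 55.3 CPM in RA-RA (−0.17 ± 0.10, adjusted p = 0.497). All 4 overlapped between treatments. Without 6RARA and 4HH37 the log2 fold changes were 0.30 for Acadl, −0.012 for Ppargc1a, −0.0116 for Hadh and −0.11 for Acaa1a, so the signs of Ppargc1a and Hadh turned. Leaving out a litter moved some calls: without 3HH, Fabp3 and Acadl were called higher (2.05% of all genes were), without 4RARA, Ppargc1a was (5.26% of all genes), and with no sex term, Fabp3 was (1.21% of all genes).

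The room air litters differed in 4 of the 30 genes in lung, where 15.6% of all genes were higher and 15.6% lower in 6RARA. Slc25a20 rose by 0.39 ± 0.13 on the log2 scale, to 72.7, 83.9 and 133 CPM in 6RARA, against 58.5, 65.6 and 77.6 CPM in 4RARA (adjusted p = 0.0275). Ehhadh, a peroxisomal bifunctional enzyme, rose by 0.63 ± 0.16 (adjusted p = 0.0077). Ppargc1a fell by 0.80 ± 0.22 on the log2 scale, to 1.88, 5.17 and 9.97 CPM in 6RARA, against 8.15, 10.2 and 15.1 CPM in 4RARA (adjusted p = 0.0117). Hadha fell by 0.24 ± 0.09 (adjusted p = 0.0403) and was the only one whose litters did not overlap, at 138 to 193.1 CPM in 6RARA and 193.4 to 223 CPM in 4RARA (8.01% of all genes lay lower in every library). The lowest values of Ppargc1a and Hadha were those of 6RARA66, a library with 1028679 counts and 59.17% intergenic reads. The highest Slc25a20 value was that of 6RARA68, and the litter fit was not run without these libraries. With RIN as a covariate, 2 of the 30 were higher and 1 lower (11.6% and 13.3% of all genes). The median of the 30 was 0.01, so in lung no general shift like that of right ventricle was seen between these litters. Between 4HH and 3HH, 0 of 30 were called (0.741% of all genes). At an unadjusted p under 0.05 there were 9, and the share of all genes at that limit is not given here. The median of the 30 was 0.33, and 0.08 without 4HH37.

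Acaa2, the mitochondrial thiolase, fell into separate levels within litters in lung. In 4RARA it was 51.8, 58.2, 58.5 and 65.5 CPM in animals 4RARA39, 4RARA38, 4RARA43 and 4RARA40, and 126.5 to 136.5 CPM in the other 4. In 3HH it was 65.5, 65.9, 74.8 and 75.0 CPM in animals 3HH20, 3HH25, 3HH29 and 3HH28, and 109 to 164 CPM in the other 4. All 6 libraries of 4HH and all 7 of 6RARA lay at 103.0 CPM or above. Both levels held both sexes, but unevenly. In 4RARA the only male at the low level was 4RARA43 and the only female at the high level was 4RARA41. In 3HH these were 3HH20 and 3HH27. The right ventricle of the same animals kept the order in 4RARA, with 443.5 to 551.5 CPM in the 4 animals that were low in lung and 624 to 740 CPM in the 3 others measured. In 3HH it was kept in part, with 469 to 558 CPM in the 4 that were low in lung and 515, 584, 821 and 899 CPM in the others.

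**Figure D4:**
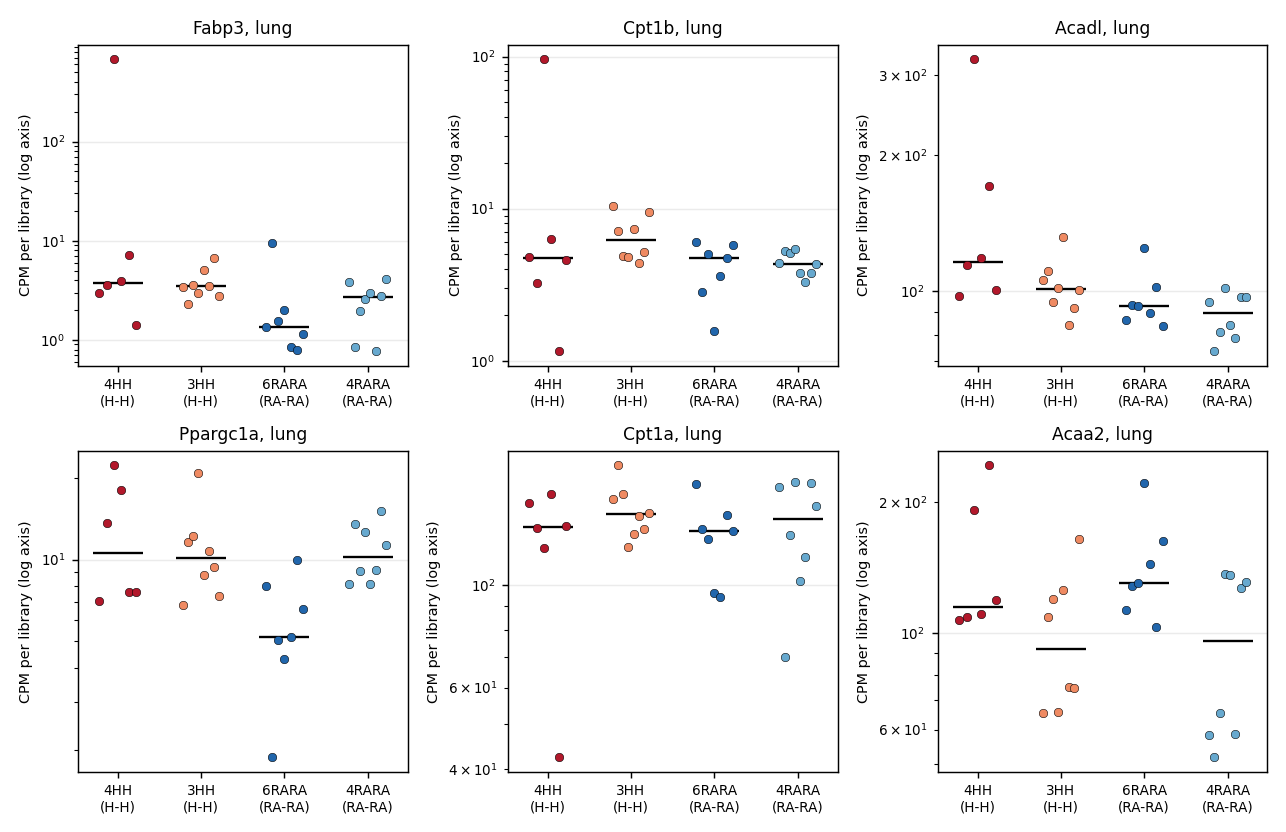
CPM of 6 genes in each lung library by litter, on log axes; points are libraries and lines are litter medians. The library of 4HH37 stands above all others for Fabp3, Cpt1b and Acadl, and Acaa2 falls into low and high levels within 3HH and within 4RARA.

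The tissues differed in 28 of the 30 genes in room air rats. For right ventricle over lung, 27 were higher and 1 lower (edgeR's quasi-likelihood test), where 35.2% of all 11622 genes were higher and 32.1% lower, and the median log2 fold change was 2.89 beside 0.04 over all genes. Without litter 6RARA the same counts held with a median of 3.45 (41.4% of all genes higher and 39.2% lower). With animal as a block over animals that gave both tissues, 28 were higher, Cpt1a being the addition (36.8% of all genes higher and 36.3% lower).

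Fabp3 showed the widest difference, 11.00 ± 0.56 on the log2 scale, followed by Cpt1b at 6.85 ± 0.34, Pdk4 at 4.77 ± 0.50, Acadl at 4.43 ± 0.18 and Ppara at 4.15 ± 0.42. The trifunctional protein genes differed by 2.93 for Hadhb and 2.22 for Hadha, and the enzymes for unsaturated chains by 1.38 for Eci2 to 2.85 for Eci1. Cpt1a, which encodes the gate outside muscle, did not pass the test (0.24 ± 0.13, adjusted p = 0.098), nor did Acaa1a (−0.02 ± 0.12). Acot1, a cytosolic thioesterase, was the only one lower in right ventricle (−2.08 ± 0.35). Its close paralog Acot2 was higher (2.73 ± 0.23). Acot1 was only 0.285 to 1.21 CPM in right ventricle of litter 4RARA, and it overlapped between the tissues in that litter. Reads of the pair may be split by the counting, so both values are uncertain.

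Levels of different genes were set side by side per kilobase of counted length, in litter 4RARA alone. In right ventricle, Fabp3 led with 7297, 7943 and 12154 CPM per kb (lowest, median, highest of 7), then Acadl with 1297, 1370 and 2088, Hadhb with 749, 868 and 936, and Etfb with 758, 831 and 881. The lowest were Ehhadh, with a median of 5.07 CPM per kb, and Acot1, with 0.612. Of the 29 neighbouring pairs in this order, 6 did not overlap over their libraries, among them Fabp3 over Acadl and Acadl over Hadhb. In lung, Ech1, an isomerase for unsaturated chains, led with a median of 124.5 CPM per kb, followed by Hadhb with 75.5, and Ppara was lowest with 0.768. There 2 of 29 neighbouring pairs did not overlap. Fabp3 was first in right ventricle and rank 25 of 30 in lung, and Cpt1b was rank 17 and rank 29, while Cpt1a was rank 25 in right ventricle and rank 15 in lung. Both gates were thus present at a median of 219 CPM per kb (Cpt1b) and 32.3 (Cpt1a) in right ventricle, and at 1.35 (Cpt1b) and 28.1 (Cpt1a) in lung.

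**Figure D5:**
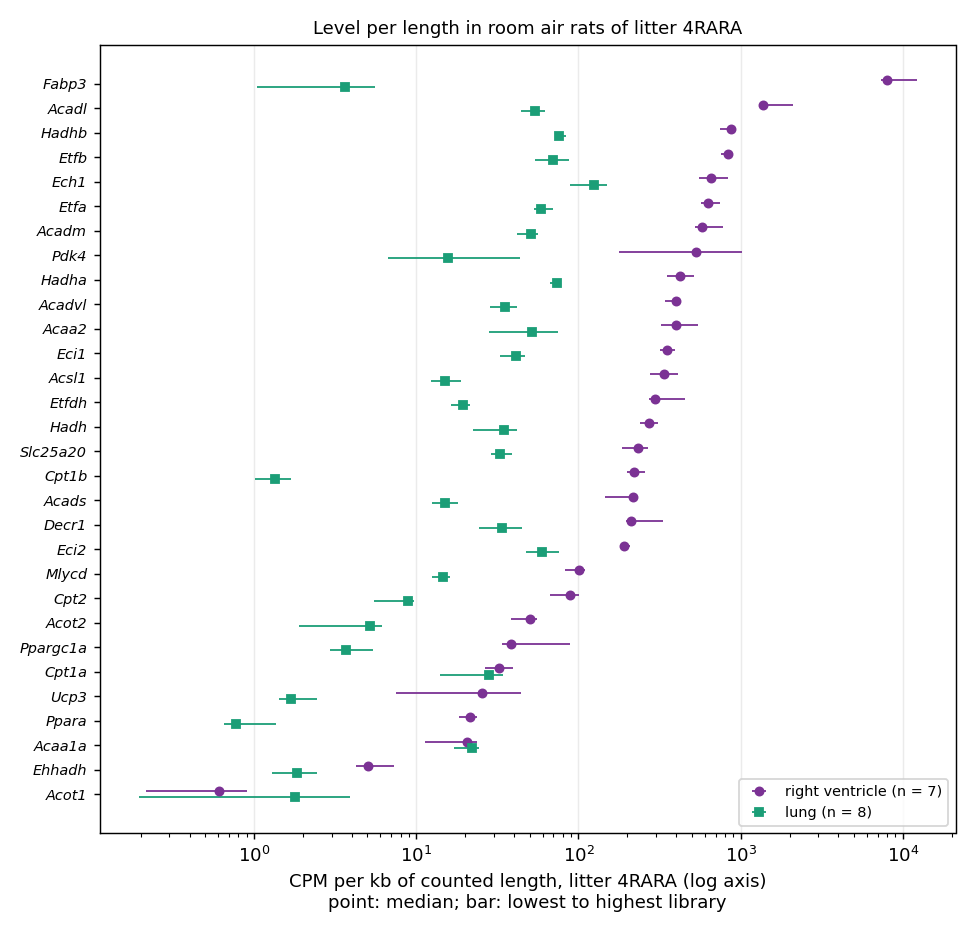
CPM per kilobase of counted length for the 30 genes in litter 4RARA, with right ventricle as circles (n = 7) and lung as squares (n = 8), on a log axis; points are medians and bars run from the lowest to the highest library. In 27 genes every right ventricle library lies above every lung library, and Cpt1a, Acaa1a and Acot1 overlap between the tissues. The share of all genes separated in this way was not counted. By edgeR's test without litter 6RARA, 41.4% of all genes were higher in right ventricle.

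The altitude effect was not shown to differ between tissues for any gene of the pathway. For the interaction of tissue and treatment (the right ventricle log2 fold change minus that of lung), 0 of 30 were called by edgeR, against 1.01% of 11744 genes, and 5 had an unadjusted p under 0.05. The median was 0.19, and −0.13 without 6RARA and 4HH37. The lowest p belonged to Fabp3 (−2.91 ± 1.09, adjusted p = 0.208), whose lung value rests on 4HH37, and Ucp3 (−0.98 ± 0.40, adjusted p = 0.253). With animal as a block, 0 of 30 were called (0.973% of all genes). In that fit Fabp3 gave −0.42 ± 0.67 and Ucp3 gave −0.61 ± 0.42. The lowest p there was that of Eci2 (0.66 ± 0.23, adjusted p = 0.175). Between males and females, 0 of 30 were called in lung and 0 of 29 in right ventricle, where 0.033% and 0.0445% of all genes were. At an unadjusted p under 0.05 there were 2 and 0. The 2 in lung were Fabp3 (log2 fold change 2.33 for male over female) and Cpt1b (1.02), both highest in 4HH37, a male. In right ventricle 3 of 29 lay above 0 for male over female, with a median of −0.19.

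Among 17 genes of fatty acid uptake and fat storage in lung, 2 were called, Gpihbp1 and Lipe, where 2.0% of all genes were. Gpihbp1, which holds lipoprotein lipase at the capillary wall, rose to 34.6, 82.6 and 229 CPM in H-H, against 13.1, 29.9 and 84.2 CPM in RA-RA (log2 fold change 1.53 ± 0.26, adjusted p = 8.26e-04), and it was 2.02 without 6RARA and 4HH37. Lipe, the hormone-sensitive lipase, rose to 52.6, 132 and 161 CPM in H-H, against 38.3, 80.8 and 126 CPM in RA-RA (0.60 ± 0.14, adjusted p = 0.0179; 0.64 without 6RARA and 4HH37). For both genes the groups overlapped. The H-H median of Lipe lay above the highest RA-RA library, and that of Gpihbp1 just below it. Neither was called with litter as a random effect in limma (adjusted p = 0.0931 for Gpihbp1 and 1.0 for Lipe) or with counts summed over litters (adjusted p = 0.907 and 1.0).

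In right ventricle, Dgat2, which makes triglyceride, was the only one of 17 called, where 3.04% of all genes were, with 17.0, 21.8 and 46.5 CPM in H-H against 6.13, 11.2 and 23.2 CPM in RA-RA (1.07 ± 0.19, adjusted p = 0.009). The call was lost with litter as a random effect (adjusted p = 0.751) and with counts summed over litters (adjusted p = 0.941). Without 6RARA and 4HH37 it gave 0.76 (adjusted p = 0.0507), and there G0s2, an inhibitor of triglyceride breakdown, was called lower (−1.21, adjusted p = 0.0384), with −0.84 ± 0.27 (adjusted p = 0.0789) over all libraries. Of 23 transcriptional regulators, 1 was called in each tissue. Pparg, a receptor known for fat storage, was that gene in both, lower in right ventricle (−0.92 ± 0.25, adjusted p = 0.0469) and higher in lung (0.51 ± 0.13, adjusted p = 0.0334). Both calls were lost with litter as a random effect (adjusted p = 0.829 in right ventricle and 0.939 in lung) and with counts summed over litters (adjusted p = 0.941 and 1.0). Neither call held without 6RARA and 4HH37, where the log2 fold changes were −0.40 in right ventricle (adjusted p = 0.585) and 0.35 in lung (adjusted p = 0.251). In right ventricle Pparg was 9.94, 14.1 and 23.6 CPM in H-H, and in room air it was 33.4 to 60.8 CPM in 6RARA and 9.91 to 39.2 CPM in 4RARA.

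The other companion lists had no call in either tissue. Of lowest p among other mitochondrial fatty acid and ketone enzymes were Cpt1c (0.49 ± 0.18, adjusted p = 0.190) and Nnt (0.41) in lung, and Acss1 (0.57 ± 0.21, adjusted p = 0.121) and Acsl3 (−0.26) in right ventricle. For peroxisomal enzymes they were Abcd2 (0.24) and Crot (0.14) in lung, and Pecr (0.32) and Acot8 (−0.23) in right ventricle. For pyruvate oxidation they were Pdha1 (0.28) and Pdk3 (0.13) in lung, and Pdp1 (0.52) and Pdhx (0.49) in right ventricle. For the citric acid cycle, Idh3g gave 0.31 in lung, and Mdh2 (0.56) and Sdhd (0.46) had the lowest p in right ventricle. In right ventricle all 16 citric acid cycle genes lay above 0 with all libraries, with a median of 0.40, and 9 of 16 without 6RARA and 4HH37, with a median of 0.02.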

How the data were processed

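RNA was sequenced from flash-frozen rat lung and right ventricle, with libraries made by the KAPA mRNA HyperPrep kit and run on a HiSeq4000, per the labels' protocols. Per the submitters' processing notes, FastQC and MultiQC 0.11.5 served for quality control, and reads were aligned with STAR 2.5, counted with featureCounts 1.5.1 of Subread and tested with edgeR. The build, UCSC rn6, is named in the deposited notes. The deposited counts are raw read counts per gene, per the file headers. The strand setting, the authors' gene filter and their model terms are not given in the sources used here. The authors' deposited log2 fold changes, p-values and false discovery rates are quoted only where named. The batch is headed only Batch # on the deposited run sheet. It is called library batch here, and the header does not say which step it refers to. The mapping percentages and the counted gene length come from the other deposited columns, per the file headers.

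The main test was that of edgeR 4.0.16 under R 4.3.3: filterByExpr (minimum count 10, minimum total 15), TMM scaling, glmQLFit with robust estimation and glmQLFTest, with sex as a covariate. P-values were adjusted by Benjamini-Hochberg across all genes tested in each fit, with 0.05 as the limit for a call. Counts at an unadjusted p under 0.05 are given without the share of all genes at that limit, so they have no background here. The SE is the log2 fold change divided by the root of F. CPM are scaled by TMM within a tissue, and over both tissues for levels per kb. The test was checked on simulated counts. The alternatives were DESeq2 1.42.0, limma 3.58.1 (voom, litter as a random effect), and other scalings, filters, covariates and libraries. Lung and right ventricle of one animal were paired by its name: over 25 animals, their deviations from group means correlated at a mean r of 0.254 (range −0.206 to 0.561, 23 over 0.1), and 0.218 with the litter mean removed. The pairing comes from the animal, so the replicate block is given beside results it changes.

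The 31 genes and all lists were chosen with earlier results of these data known. Named with full values are genes called for altitude and the 6 of lowest p in each tissue; from each companion list, those called, at most 4, or else the 2 of lowest p, of which 1 is not reported here. Genes described for litters, tissues or single libraries beyond these were chosen after their values were seen. Symbols were used as deposited. The deposited run sheet marks the RINs of animal 3HH28 as exchanged between its tissues, and the RINs of the sample labels were used.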

Additional observations from a re-analysis of the deposited data

Results flagged for a closer look

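In 10 of 56 litter groups checked, 1 library stood apart from its littermates by Dixon's test at the 95% level. Chance flags about 1 in 20 groups where groups are independent. These groups share libraries and their genes were picked by p-value in the same data, so the count cannot be set against that rate. In right ventricle, Cpt1a was 145.7 CPM in animal 4HH33, against 122.0 CPM in the next library of its litter, and 143.5 CPM in animal 6RARA65, against 99.97 CPM in the next. The summed level of the 30 genes was 23206.5 CPM in animal 4RARA39, against 18845.1 CPM in the next.

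In lung, animal 4HH37 stood apart for Fabp3 at 675.5 CPM (next 7.25 CPM), Acadl at 325.5 CPM (next 170.3 CPM) and Cpt1b at 96.09 CPM (next 6.29 CPM). Its library holds the cardiac muscle markers given in the report. Animal 6RARA66 stood apart for Fabp3 at 9.378 CPM (next 1.98 CPM) and for Hadh, the lowest of its litter at 36.57 CPM (next 51.85 CPM). That library has 1028679 counts and 59.17% intergenic reads. Ppargc1a was 20.87 CPM in animal 3HH25 (next 12.19 CPM), and the summed level was 2513.1 CPM in animal 6RARA68 (next 1948.1 CPM).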

How the results depend on the processing

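With 2 litters on each side, the altitude calls rest on few independent exposures, and depth limits genes of a few CPM. Over all genes, lung altitude calls numbered 242, and 493 with DESeq2, 10 with limma and litter as a random effect, 0 with counts summed over litters, 156 with batch as a covariate, 1231 without litter 4RARA, 11 in females alone, 449 without 4HH39, 6RARA66, 6RARA68 and 4HH37, 0 within batch 1 and 2 within batch 2. In right ventricle they numbered 343, and 871 with DESeq2, 0 with limma, 0 with summed counts, 23 with batch, 51 with RIN, 0 without 3HH, 52 without 4HH, 6518 without 4RARA, 18 without 6RARA, 531 without 4HH37, 34 without 6RARA and 4HH37, 4 when libraries of RIN under 7 were also left out, 0 in females, 2 in males, 0 within batch 1 and 4 within batch 2. The batch splits and the RIN limit were chosen after seeing the data.

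Of the 30 genes, calls higher in lung numbered 0, and 1 with no sex term, 2 without 3HH and 1 without 4RARA. In right ventricle, leaving out 4RARA gave 25 higher, 1 lower and a median of 1.54. The 4HH over 3HH median in lung was 0.0802 without 4HH37, and the right ventricle count over all genes was 13. With RIN, 6RARA over 4RARA gave 1 lower in lung and 0 higher in right ventricle. The interaction gave 25 genes in all without 6RARA, and 25 without 6RARA and 4HH37. In the paired fit, with the animal as replicate block, the interaction median was 0.39 with 114 genes called in all, and for right ventricle over lung 28 genes were higher and 1 lower. The block added the Cpt1a call and changed no other count of calls among the members.

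Among the 6 genes of lowest p in each tissue alone, signs turned in lung for Cpt1b in females (−0.061) and for Ppargc1a (−0.012) and Hadh (−0.0116) without 6RARA and 4HH37. In right ventricle they turned within batch 1 for Acot2 (−0.0205) and Acadvl (−0.0019), without 4RARA for Ucp3 (0.13), without 6RARA for Mlycd (−0.0328) and Cpt2 (−0.0228), and with the RIN limit for Mlycd (−7.9e-05) and Cpt2 (−0.0205). None of these had passed the test. Over all 30 in right ventricle, 28 lay above 0 with all libraries and 11 without 6RARA and 4HH37. The cause was not tested.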

Other observations

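In lung, animals 4HH39 and 6RARA68 stood apart for several members and for other lists. In 4HH39 Slc25a20 was 166 CPM, Etfa 303 CPM and Eci1 135 CPM, each the highest of the 29 lung libraries, and Cpt1a was 42.4 CPM, the lowest. In 6RARA68 Slc25a20 was 133 CPM and Etfa 202 CPM, each the second highest. The regulator list summed to 844 CPM in 4HH39 and 1020 CPM in 6RARA68, the 2 lowest of the 29. Capillary endothelial markers summed to 1644 and 1940 CPM, clock genes to 551 and 461 CPM, and lung epithelial markers to 75358 and 52752 CPM, 4HH39 being the highest there.

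In right ventricle of litter 4RARA, Ucp3 and the clock gene Arntl were both measured in 7 animals. Ucp3 was 89.5, 74.9, 59.3 and 50.5 CPM in animals 4RARA38, 4RARA44, 4RARA43 and 4RARA42, where Arntl was 102.5, 49.5, 90.4 and 99.3 CPM. Ucp3 was 25.8, 17.6 and 14.9 CPM in animals 4RARA39, 4RARA41 and 4RARA40, where Arntl was 42.4, 10.4 and 15.6 CPM. The 4 animals highest for Ucp3 were also the 4 highest for Arntl. In litter 6RARA, Ucp3 was 59.8, 20.2, 13.8 and 7.83 CPM in animals 6RARA65, 6RARA67, 6RARA71 and 6RARA72, where Arntl was 68.7, 62.05, 29.9 and 21.8 CPM. The pair was chosen after its values were seen.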
